A study of Mus musculus with 9 samples.

Results

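The genes described here encode the sterol regulatory element-binding protein (SREBP) system and the enzymes it is known to drive, from acetyl-CoA to monounsaturated and polyunsaturated fatty acids and to cholesterol. They are a list of 35 mouse genes set by name. The rule itself uses no measured value, but it and the members were chosen with earlier results of these data known. All 35 were found by symbol among the 55536 Ensembl identifiers of the count table, and 34 were among the 14684 genes with enough counts to be tested. The exception was Me1, a malic enzyme that supplies NADPH, with 0 to 15 counts per library.

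The messenger RNA came from CD4+ T cells of the spleens of male mice aged 6 to 12 weeks, labelled WT for genotype. Every group was activated over 18 h by beads carrying antibodies to CD3 and CD28, with murine IL-2 at 5 ng/mL. During that time they received EKO-BMDM-exo, exosomes from ApoE-deficient mice (EKO_exo, 3 libraries), WT-BMDM-exo, exosomes from wild-type mice (WT_exo, 3 libraries), or PBS (3 libraries). Exosomes were given at 2e+09 particles/mL. No group without bead stimulation is part of the design, so every level below is that of activated cells, and the ApoE deficiency belongs to the exosome donors and not to the T cells. The submitters describe 3 biological replicates per group without saying whether each was a different mouse. The tests therefore reflect variation among the libraries as deposited, which may be technical.

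The libraries held 25792975 to 30221565 counts in EKO_exo, 29138950 to 32971791 in WT_exo and 28412418 to 30464334 in PBS. The EKO_exo libraries had counts for 19038 to 19518 genes, against 19989 to 20568 in the other 6, and each EKO_exo library stood apart from all others on 1 of the 3 leading principal components of all genes (library 3 on the first, library 1 on the second and library 2 on the third). The 10 CD4 T cell markers examined summed to 4576 to 4638 CPM in EKO_exo, 4360 to 4477 CPM in WT_exo and 4353 to 4474 CPM in PBS, where CPM, the unit of level used throughout, is the share of a library's counts scaled by the TMM factor of that library. At an adjusted p under 0.05, edgeR called 0 of these markers in WT_exo against PBS. DESeq2 and limma voom called Cd5 higher and Cd4 lower there. In EKO_exo against WT_exo edgeR and limma voom called 0, and DESeq2 called Cd3e, Cd4 and Cd247 higher. In EKO_exo against PBS DESeq2 called Cd3e, Trac, Cd5 and Cd247 higher. By edgeR, 3 rose in that comparison (Cd3e, Cd5 and Cd247), by 0.11 to 0.15 on the log2 scale, and limma voom called the same 3. These 3 became 1 without EKO_exo library 1 or 3, without PBS library 1 or 2, or without any 1 WT_exo library, and 0 without EKO_exo libraries 1 and 3 together.

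SREBPs are transcription factors made as precursors in the membrane of the endoplasmic reticulum. When sterols are scarce, SCAP escorts them to the Golgi, where proteases release the active factor. When sterols are plentiful, INSIG proteins hold the complex back. SREBP-1 is best known for genes of fatty acid synthesis and desaturation, and SREBP-2 for genes of cholesterol synthesis. Activated T cells are known to raise both arms as they build membrane for division.

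Promoters of 3 members whose level fell are printed. SREBPs are known to act at promoters of their targets together with the factors NF-Y, which binds CCAAT, and Sp1, which binds GGGCGG. Whether they act at the printed stretches was not tested. Windows from RefSeq (GRCm38.p6), 250 bases before to 50 bases after a transcription start, matched 28 of the 35 members. The other 7, Scd1, Scd2, Fads1, Fdps, Fdft1, Sqle and Stard4, had no window, so the motif counts below leave them out. The sequences below run 5′ to 3′ toward the start on the gene's own strand, with CCAAT and GGGCGG in capitals in either orientation, so that ATTGG and CCGCCC are their reverse complements. The Srebf1 stretch, on the minus strand at chr11:60210472-60210571, ends at the base before the third of its 3 annotated starts and lies in an intron of the longer transcripts. Counts per gene do not tell which start was used in these cells. The Lss stretch, on the plus strand at chr10:76531425-76531587, and the Cyp51 stretch, on the minus strand at chr5:4104747-4104877, lie outside every GENCODE M21 exon.
Srebf1: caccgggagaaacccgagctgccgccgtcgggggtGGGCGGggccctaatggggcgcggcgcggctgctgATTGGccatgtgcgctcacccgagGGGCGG
Lss: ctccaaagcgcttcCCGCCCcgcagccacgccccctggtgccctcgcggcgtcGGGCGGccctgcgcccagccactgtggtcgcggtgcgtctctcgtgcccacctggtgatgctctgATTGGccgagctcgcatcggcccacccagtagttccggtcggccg
Cyp51: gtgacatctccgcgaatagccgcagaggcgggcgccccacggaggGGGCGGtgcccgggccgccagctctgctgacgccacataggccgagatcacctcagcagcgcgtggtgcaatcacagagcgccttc
In Srebf1, CCAAT began 30 bases and GGGCGG 65 and 6 bases upstream of the start. In Lss, CCAAT began 62 bases and GGGCGG 166 and 127 bases upstream. In Cyp51, GGGCGG began 135 bases upstream, and a CCAAT 29 bases upstream falls in the exon that GENCODE annotates and is not printed. Over the 300-base windows, counted per promoter since a gene can have several, CCAAT was present in 24 of the members' 36 promoters and in 37.4% of all 32851 promoters of the table, and GGGCGG in 27 of the 36 and in 35.7%. The E-box CACGTG was present in 7 of the 36 promoters and in 7.15% of all. The sterol regulatory element was searched as TCACNCCAC, where N is any base. This string was present in 1 of the 36 promoters, that of Hmgcs1, 137 bases upstream, and in 1.24% of all promoters. Forms of the element that differ from this string were not searched, so its absence does not mean that a promoter lacks the element. These are matches of letters on both strands, and draw nothing about binding.

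In cells given exosomes from ApoE-deficient mice, 9 of the 34 tested members fell against PBS at an adjusted p under 0.05 by the edgeR quasi-likelihood test, where 2.87% of all genes tested fell. They were the regulator Srebf1, the carboxylase Acaca, the desaturases Scd1, Scd2, Fads1 and Fads2, the sterol enzymes Lss and Cyp51, and the sterol carrier Stard4. In cells given wild-type exosomes, 8 members fell against PBS, where 3.14% of all genes fell: Srebf1, Scd1, Scd2, Elovl6, Fads1, Fads2, Lss and Cyp51. No member rose in either comparison, where 2.21% of all genes rose in EKO_exo and 1.83% in WT_exo; at an unadjusted p under 0.05 edgeR also found 0 higher members in both, and DESeq2 and limma voom called none higher. Both comparisons use the same 3 PBS libraries, so they are not independent of each other. Since the members were chosen with earlier results of these data known, the shares of all genes are given as description only.

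Among the fallen members, Scd1, Scd2 and Fads2 had log2 fold changes between -1.42 and -0.54 in EKO_exo and between -1.66 and -0.60 in WT_exo. The other fallen members lay between -0.31 and -0.18 in EKO_exo, and between -0.49 (Elovl6) and -0.19 in WT_exo. The median log2 fold change over the 34 members was -0.15 in EKO_exo against PBS and -0.11 in WT_exo against PBS, beside 0.00 over all genes tested in both. Values were below 0 for 29 members in EKO_exo and for 28 in WT_exo. Every EKO_exo library lay below every PBS library for 14 members, where 10.6% of all genes did so, and every WT_exo library lay below every PBS library for 10 members, where 11.6% of all genes did. The counts of fallen members depended on single libraries. In EKO_exo against PBS the 9 became 5 without PBS library 1, 3 without PBS library 2, and 2 (Scd2 and Fads2) without EKO_exo libraries 1 and 3. In WT_exo against PBS the 8 became 4 without PBS library 2, 5 without WT_exo library 1, 4 without WT_exo library 2 and 5 without WT_exo library 3. In these bulk libraries, fewer cells of a type and less RNA per cell cannot be told apart.

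**Figure D1:**
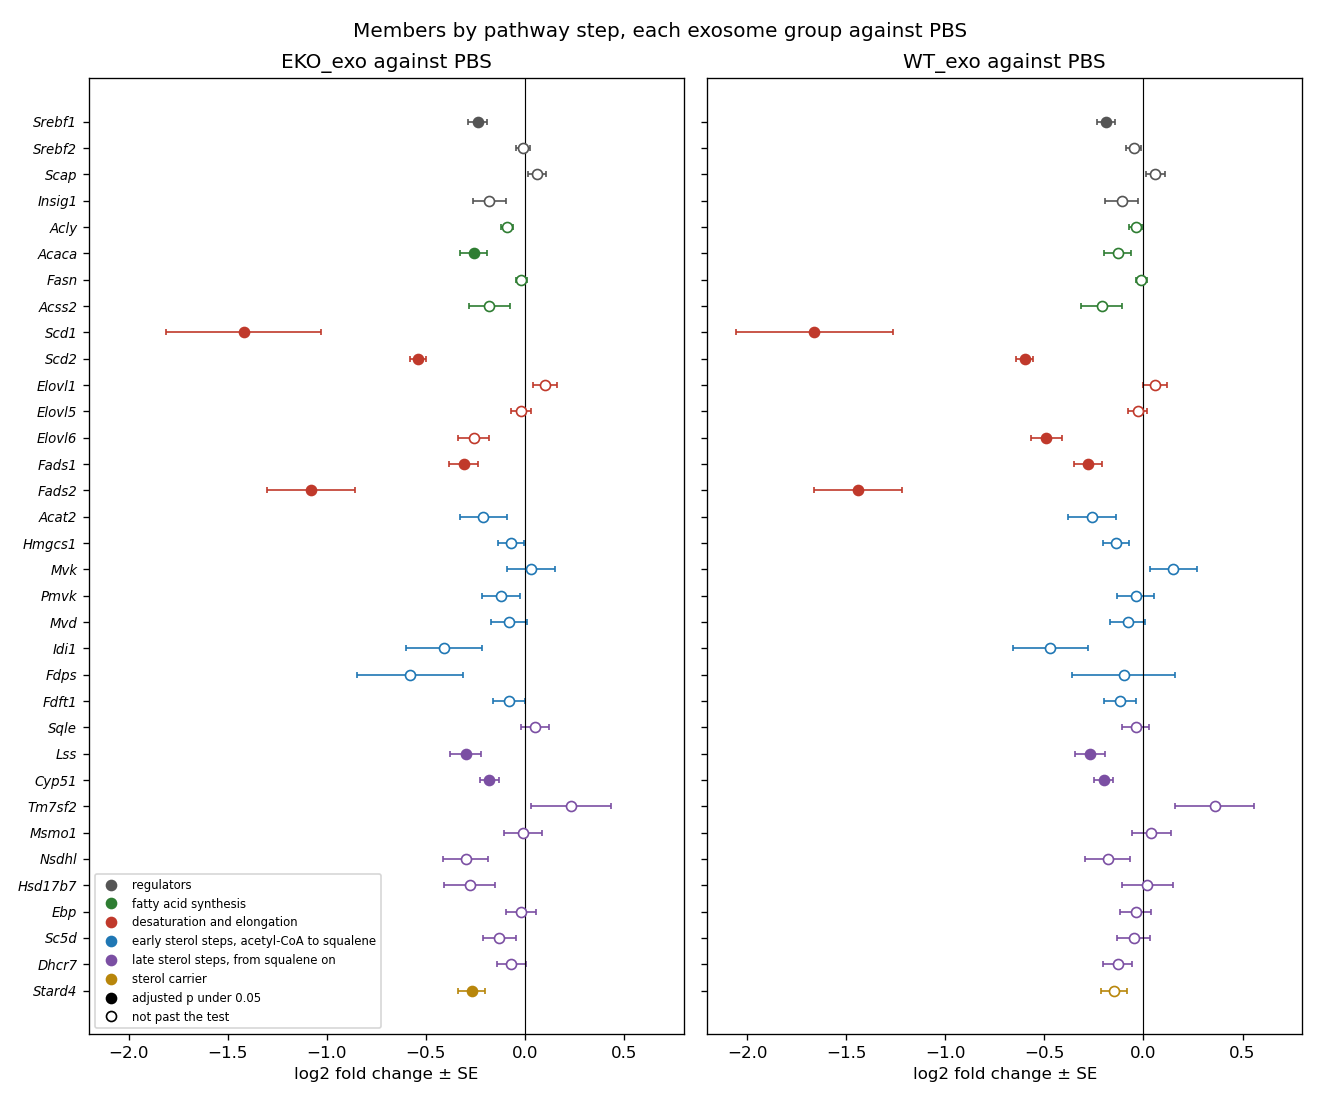
The log2 fold change of each of the 34 tested members (points, with the SE as bars) in EKO_exo against PBS on the left and WT_exo against PBS on the right, in pathway order and coloured by step. Filled points passed the test; the longest distances from 0 are those of Scd1 (-1.42 in EKO_exo, -1.66 in WT_exo) and Fads2 (-1.08 in EKO_exo, -1.44 in WT_exo), while Srebf2 and Fasn lie within 0.05 of 0 in both panels.

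Per kilobase of exon, the best expressed members in PBS cells were Acly at 101 CPM, Scd2 at 91.7 CPM and Fasn at 85.9 CPM, followed by Srebf2 at 57.5 CPM. The lowest tested members were Fdps at 0.999 CPM and Scd1 at 0.634 CPM per kilobase. Scd2 was thus among the 3 highest members in control cells, and its level per kilobase was 63.0 CPM in EKO_exo, 60.7 CPM in WT_exo and 91.7 CPM in PBS. The summed level of all 35 members was 3621 ± 77.4 CPM in EKO_exo, 3630 ± 32.3 CPM in WT_exo and 3955 ± 82.9 CPM in PBS (SD, n = 3 each). Without Scd2 the sums were 3277 ± 58.3 CPM in EKO_exo, 3299 ± 35.3 CPM in WT_exo and 3454 ± 62.1 CPM in PBS.

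Among the 4 regulators, only Srebf1 changed by the edgeR test. Srebf1 (ENSMUSG00000020538, chromosome 11, 60199089 to 60222581 on the minus strand of GRCm38), which encodes SREBP-1, had 143, 146 and 137 CPM in EKO_exo libraries 1 to 3, 138, 147 and 155 CPM in WT_exo libraries, and 166, 170.3 and 165 CPM in PBS libraries. All 6 exosome libraries lay below all 3 PBS libraries. Srebf1 had a log2 fold change of -0.24 ± 0.046 (adjusted p = 0.00189) in EKO_exo and of -0.19 ± 0.046 (adjusted p = 0.0124) in WT_exo, where ± gives the SE as for all fold changes here. This is 15.1% lower than PBS in EKO_exo and 12.3% lower in WT_exo. In WT_exo the call was lost without PBS library 2, WT_exo library 1 or WT_exo library 2 (adjusted p = 0.0559 to 0.131). In EKO_exo it held without any single library and was lost when libraries 1 and 3 were both left out (adjusted p = 0.142).

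Srebf2 (ENSMUSG00000022463), which encodes SREBP-2, had 394, 412 and 426 CPM in EKO_exo libraries 1 to 3, 382, 410.2 and 405 CPM in WT_exo libraries, and 404, 419 and 416 CPM in PBS libraries. The 3 groups overlapped, and the fold changes against PBS were -0.01 ± 0.036 in EKO_exo (95% interval -0.08 to 0.07) and -0.05 ± 0.036 in WT_exo (-0.12 to 0.03). Scap (ENSMUSG00000032485), the escort of SREBPs, had 163, 165 and 168 CPM in EKO_exo libraries 1 to 3, 167, 163 and 164 CPM in WT_exo libraries, and 144, 164 and 166 CPM in PBS libraries. The lowest of these was PBS library 1, and the groups overlapped, with fold changes of 0.06 ± 0.047 in EKO_exo and 0.06 ± 0.047 in WT_exo. For Scap, 9.96% of the 50-base words of its transcripts are shared with a transcript on the other strand, and the strand setting of the counting is not given in the sources used here.

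Insig1 (ENSMUSG00000045294), which retains SCAP and is itself an SREBP target, had 38.6, 51.5 and 47.8 CPM in EKO_exo libraries 1 to 3, 47.8, 45.5 and 51.2 CPM in WT_exo libraries, and 52.8, 51.8 and 51.1 CPM in PBS libraries. EKO_exo library 1 was the lowest and EKO_exo library 2 lay within the PBS values, so the groups overlapped. The fold changes were -0.18 ± 0.083 in EKO_exo (adjusted p = 0.271) and -0.11 ± 0.082 in WT_exo (adjusted p = 0.612).

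Of the genes that make saturated fatty acids, Acaca fell in EKO_exo, and 0 of 4 tested fell in WT_exo (by edgeR 0 also at an unadjusted p under 0.05, and 0 by DESeq2 or limma voom at an adjusted p under 0.05). Acaca (ENSMUSG00000020532, chromosome 11, 84129672 to 84401651 on the plus strand of GRCm38), the carboxylase that makes malonyl-CoA, had 53.3, 63.2 and 57.8 CPM in EKO_exo libraries 1 to 3, 61.9, 67.3 and 62.8 CPM in WT_exo libraries, and 75.1, 69.2 and 65.1 CPM in PBS libraries. EKO_exo libraries lay below the PBS libraries, while WT_exo libraries overlapped with both. Acaca gave a log2 fold change of -0.26 ± 0.07 (adjusted p = 0.0227) in EKO_exo and of -0.13 ± 0.069 (adjusted p = 0.405) in WT_exo. The call in EKO_exo was lost without EKO_exo library 1, EKO_exo library 3, PBS library 1 or PBS library 2 (adjusted p = 0.0518 to 0.183), and without EKO_exo libraries 1 and 3 together the adjusted p was 0.571. Sequence shared with other annotated genes covers 30.4% of the 50-base words of Acaca transcripts, most of it with Gm5182, so reads could be split between them.

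Fasn, the synthase that makes palmitate, averaged 925 ± 21.9 CPM in EKO_exo, 932 ± 15.8 CPM in WT_exo and 940.2 ± 25.4 CPM in PBS (SD, n = 3 each). Its fold changes of -0.02 ± 0.028 in EKO_exo and -0.01 ± 0.028 in WT_exo had 95% intervals of -0.08 to 0.03 in EKO_exo and -0.07 to 0.05 in WT_exo. Neither passed the test, and the groups overlapped. Acly, which makes cytosolic acetyl-CoA from citrate, had 510.2, 486 and 505 CPM in EKO_exo libraries 1 to 3, 528, 514 and 518 CPM in WT_exo libraries, and 538, 540.4 and 521 CPM in PBS libraries. All EKO_exo libraries were below all PBS and all WT_exo libraries. Its fold change of -0.09 ± 0.031 in EKO_exo did not pass the edgeR test (adjusted p = 0.0858) but passed with DESeq2 and with limma voom. Acss2, which makes acetyl-CoA from acetate, was at -0.18 in EKO_exo and -0.21 in WT_exo on the log2 scale, with neither passing. Me1, not tested, ranged up to 0.581 CPM in EKO_exo, 0.514 CPM in WT_exo and 0.239 CPM in PBS.

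Among the steps with more than 1 gene, desaturation and elongation held the largest share of fallen members, 4 of 7 in EKO_exo and 5 of 7 in WT_exo. The median log2 fold change of the step was -0.31 in EKO_exo and -0.49 in WT_exo. The desaturases place double bonds in fatty acids, and the elongases lengthen them; Scd1 and Scd2 make monounsaturated fatty acids, and Fads1 and Fads2 act on polyunsaturated ones.

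Scd2 (ENSMUSG00000025203, chromosome 19, 44293674 to 44306864 on the plus strand of GRCm38), a stearoyl-CoA desaturase that is the main form in many mouse tissues outside the liver, had 316, 361 and 355 CPM in EKO_exo libraries 1 to 3, 336, 331 and 328 CPM in WT_exo libraries, and 519.6, 511 and 473 CPM in PBS libraries. All exosome libraries lay below all PBS libraries by a wide margin, and the exosome groups overlapped. For Scd2 this was a log2 fold change of -0.54 ± 0.042 (adjusted p = 1.64e-09) in EKO_exo and of -0.60 ± 0.042 (adjusted p = 3.64e-10) in WT_exo, or 31.4% lower than PBS in EKO_exo and 33.8% lower in WT_exo. It passed the test in each of 19 alternative analyses of either comparison, with adjusted p of at most 3.85e-07 in EKO_exo and 1.41e-07 in WT_exo.

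Scd1 (ENSMUSG00000037071, chromosome 19, 44394455 to 44407879 on the minus strand of GRCm38), the desaturase best known from liver, was scarce, with 1.96, 0.891 and 0.631 CPM in EKO_exo libraries 1 to 3, 1.16, 0.856 and 0.910 CPM in WT_exo libraries, and 2.85, 3.34 and 3.11 CPM in PBS libraries. These were 55, 23 and 19 counts in EKO_exo, 36, 25 and 30 in WT_exo and 81, 98 and 95 in PBS. Every exosome library was below every PBS library, and EKO_exo library 1 was the highest of the 6. The fit gave Scd1 a log2 fold change of -1.42 ± 0.392 (adjusted p = 0.0303) in EKO_exo and of -1.66 ± 0.395 (adjusted p = 0.0101) in WT_exo. The call was lost in EKO_exo without EKO_exo library 2, EKO_exo library 3, PBS library 1, PBS library 2 or PBS library 3 (adjusted p = 0.0756 to 0.128), and in WT_exo without PBS library 2, WT_exo library 2 or WT_exo library 3 (adjusted p = 0.0506 to 0.0597). Scd1 counts were 0.178% to 0.62% of Scd2 counts in EKO_exo libraries, 0.258% to 0.347% in WT_exo and 0.549% to 0.658% in PBS. The genes share little sequence: 4.56% of the 50-base words of Scd1 transcripts occur in another gene, mostly Scd3, and 3.97% of those of Scd2, mostly Scd1. Whether Scd2 reads are among the Scd1 counts was not tested.

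Fads2 (ENSMUSG00000024665, chromosome 19, 10062765 to 10101746 on the minus strand of GRCm38), the desaturase that opens the polyunsaturated pathway, had 4.06, 3.80 and 5.15 CPM in EKO_exo libraries 1 to 3, 2.85, 2.47 and 4.79 CPM in WT_exo libraries, and 10.0, 10.3 and 7.31 CPM in PBS libraries. All exosome libraries were below all PBS libraries, of which library 3 was the lowest. Fads2 had a log2 fold change of -1.08 ± 0.221 (adjusted p = 0.00258) in EKO_exo and of -1.44 ± 0.223 (adjusted p = 0.000111) in WT_exo, or 52.8% lower than PBS in EKO_exo and 63.3% lower in WT_exo. It passed in each of 19 alternative analyses of either comparison, with adjusted p of at most 0.0339 in EKO_exo and 0.00334 in WT_exo.

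Fads1 (ENSMUSG00000010663, chromosome 19, 10182888 to 10196877 on the plus strand of GRCm38), which acts after Fads2, was expressed at a higher level per kilobase than Fads2 (10.6 against 2.80 CPM per kilobase in PBS) and had 42.2, 42.4 and 39.0 CPM in EKO_exo libraries 1 to 3, 43.4, 41.3 and 41.1 CPM in WT_exo libraries, and 49.6, 53.6 and 49.5 CPM in PBS libraries. All exosome libraries were again below all PBS libraries, and the exosome groups overlapped. For Fads1 the result was a log2 fold change of -0.31 ± 0.072 (adjusted p = 0.00996) in EKO_exo and of -0.28 ± 0.072 (adjusted p = 0.0188) in WT_exo. The call was lost in EKO_exo without PBS library 2 (adjusted p = 0.0887), and in WT_exo without PBS library 1, PBS library 2, WT_exo library 2 or WT_exo library 3 (adjusted p = 0.0505 to 0.143).

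Elovl6 (ENSMUSG00000041220, chromosome 3, 129532355 to 129638495 on the plus strand of GRCm38), which extends palmitate to stearate, had 43.9, 41.0 and 41.8 CPM in EKO_exo libraries 1 to 3, 32.5, 36.4 and 38.5 CPM in WT_exo libraries, and 52.8, 46.5 and 52.0 CPM in PBS libraries. Here the 3 groups were in separate ranges, with WT_exo lowest, EKO_exo between and PBS highest. The change passed in WT_exo (log2 fold change -0.49 ± 0.079, adjusted p = 0.000160), also in each of 19 alternative analyses (adjusted p of at most 0.0044). In EKO_exo it did not pass the edgeR test (log2 fold change -0.26 ± 0.079, adjusted p = 0.0542) but passed with DESeq2.

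The remaining elongases did not pass in either comparison. Elovl5, which elongates polyunsaturated fatty acids, averaged 132 ± 2.28 CPM in EKO_exo, 131 ± 3.51 CPM in WT_exo and 134 ± 8.80 CPM in PBS. Elovl1, which makes very long saturated chains, averaged 80.8 ± 3.99 CPM in EKO_exo, 78.8 ± 5.57 CPM in WT_exo and 75.5 ± 2.20 CPM in PBS. Elovl1 was the single member with every EKO_exo library above every PBS library, where 9.94% of all genes were so (log2 fold change 0.10 ± 0.061, adjusted p = 0.441).

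**Figure D2:**
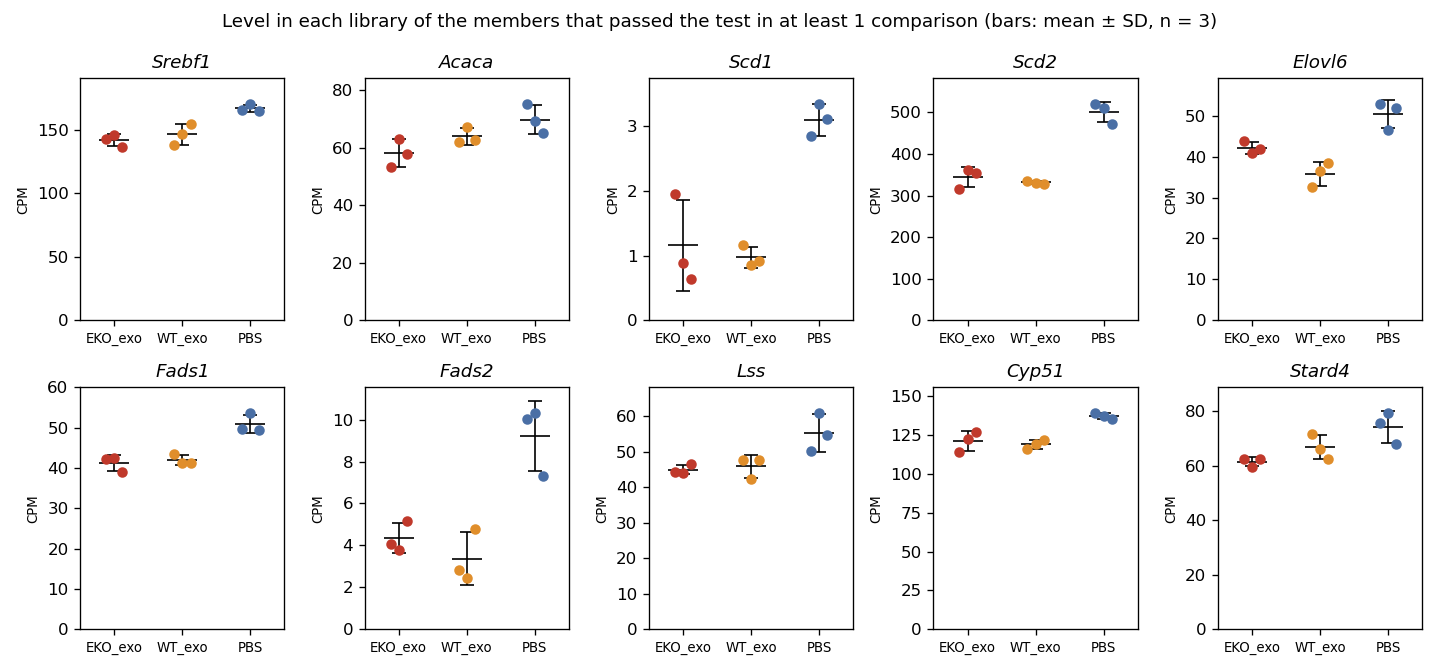
CPM in each library (points) with the mean and SD of each group (n = 3) for the 10 members that passed the test in at least 1 comparison, on linear axes from 0. For Scd2 the 6 exosome libraries sit between 316 and 361 CPM and the PBS libraries between 473 and 520 CPM, and for Elovl6 the 3 groups do not overlap.

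The early sterol steps, which turn acetyl-CoA into squalene through mevalonate, had no fallen and no risen member among 8 in either comparison by the edgeR test, and DESeq2 and limma voom called none. At an unadjusted p under 0.05, edgeR found Idi1 and Fdps lower in EKO_exo, and Acat2, Hmgcs1 and Idi1 lower in WT_exo. The median log2 fold change was -0.10 in EKO_exo and -0.11 in WT_exo. Hmgcs1, the HMG-CoA synthase that feeds the mevalonate route, had 71.8, 73.3 and 78.2 CPM in EKO_exo libraries 1 to 3, 64.3, 72.0 and 76.0 CPM in WT_exo libraries, and 83.5, 76.6 and 73.8 CPM in PBS libraries. Its groups overlapped, with fold changes of -0.07 ± 0.066 in EKO_exo and -0.14 ± 0.066 in WT_exo.

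Idi1, the isomerase that makes the reactive isoprenoid building block, had 4.10, 5.38 and 5.65 CPM in EKO_exo libraries 1 to 3, 4.98, 4.08 and 5.43 CPM in WT_exo libraries, and 5.99, 7.06 and 7.08 CPM in PBS libraries. It lay below PBS in all exosome libraries, but its fold changes of -0.41 ± 0.191 in EKO_exo and -0.47 ± 0.19 in WT_exo did not pass (adjusted p = 0.261 in EKO_exo and 0.189 in WT_exo). Fdps, the farnesyl diphosphate synthase, was at -0.58 ± 0.266 in EKO_exo and -0.10 ± 0.26 in WT_exo, and EKO_exo library 2 was its lowest at 1.70 CPM. Mvk, Pmvk and Mvd, which phosphorylate and decarboxylate mevalonate, lay between -0.12 and 0.03 in EKO_exo and between -0.08 and 0.15 in WT_exo. Fdft1, the squalene synthase, was at -0.08 in EKO_exo and -0.12 in WT_exo, and Acat2, the thiolase that joins acetyl-CoA units, was at -0.21 in EKO_exo and -0.26 in WT_exo. Several of these genes share sequence with other annotated genes, which covers 39.1% of the 50-base words of Acat2, 26.5% of Fdft1, 26.2% of Fdps and 25.3% of Idi1, so their counts are uncertain.

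Of the 10 late sterol genes, which turn squalene into cholesterol, Lss and Cyp51 fell in both comparisons. Lss (ENSMUSG00000033105, chromosome 10, 76531588 to 76557138 on the plus strand of GRCm38), the synthase that closes squalene epoxide into lanosterol, had 44.4, 44.0 and 46.4 CPM in EKO_exo libraries 1 to 3, 47.8, 42.3 and 47.8 CPM in WT_exo libraries, and 50.2, 60.8 and 54.8 CPM in PBS libraries. All exosome libraries were below all PBS libraries, of which library 1 was the lowest. Lss gave a log2 fold change of -0.30 ± 0.077 (adjusted p = 0.0196) in EKO_exo and of -0.27 ± 0.076 (adjusted p = 0.0391) in WT_exo. The call was lost in EKO_exo without EKO_exo library 1, EKO_exo library 2 or PBS library 2 (adjusted p = 0.0557 to 0.194), and in WT_exo without PBS library 2, PBS library 3, WT_exo library 1, WT_exo library 2 or WT_exo library 3 (adjusted p = 0.0711 to 0.316).

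Cyp51 (ENSMUSG00000001467, chromosome 5, 4081145 to 4104746 on the minus strand of GRCm38), the demethylase that acts on lanosterol next, had 114, 122 and 127 CPM in EKO_exo libraries 1 to 3, 116, 119 and 122 CPM in WT_exo libraries, and 139, 137 and 135 CPM in PBS libraries. All exosome libraries were below all PBS libraries, whose values were close together. Against PBS, Cyp51 had a log2 fold change of -0.18 ± 0.048 (adjusted p = 0.0253) in EKO_exo and of -0.20 ± 0.048 (adjusted p = 0.00891) in WT_exo, or 11.6% lower than PBS in EKO_exo and 13.2% lower in WT_exo. The call was lost in EKO_exo without EKO_exo library 1, PBS library 1 or PBS library 2 (adjusted p = 0.0969 to 0.141), and in WT_exo without PBS library 1 or WT_exo library 1 (adjusted p = 0.0523 to 0.0717). Cyp51 and Lss overlap genes on the opposite strand over 3.76% and 3.53% of their exon bases, Akap9 for Cyp51 and 4930483K19Rik for Lss.

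The other 8 late sterol genes did not pass. Sqle, the epoxidase that precedes Lss, averaged 53.7 ± 3.17 CPM in EKO_exo, 50.6 ± 1.36 CPM in WT_exo and 52.0 ± 3.08 CPM in PBS. Dhcr7, which catalyses a last reduction to cholesterol, averaged 57.6 ± 4.22 CPM in EKO_exo, 55.5 ± 3.97 CPM in WT_exo and 60.6 ± 4.16 CPM in PBS. Both genes overlapped between groups. Of the genes that remove the methyl groups of lanosterol, Msmo1 was at -0.01 in EKO_exo and 0.04 in WT_exo, Nsdhl at -0.30 in EKO_exo and -0.18 in WT_exo, and Hsd17b7 at -0.28 in EKO_exo and 0.02 in WT_exo on the log2 scale. Ebp and Sc5d, an isomerase and a desaturase of the sterol rings, were at -0.02 and -0.13 in EKO_exo and at -0.04 and -0.05 in WT_exo. Tm7sf2, a sterol reductase, had the highest value of all members in both comparisons (log2 fold change 0.23 ± 0.202, adjusted p = 0.627 in EKO_exo, and log2 fold change 0.36 ± 0.2, adjusted p = 0.405 in WT_exo), from 107 to 199 counts per library, and 9.87% of its 50-base words are shared with Vps51. Every WT_exo library lay above every PBS library for Tm7sf2 and for no other member, where 10.6% of all genes did so.

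Stard4 (ENSMUSG00000024378), which carries sterols between membranes and is an SREBP target, had 62.4, 59.6 and 62.5 CPM in EKO_exo libraries 1 to 3, 71.5, 66.3 and 62.6 CPM in WT_exo libraries, and 75.6, 79.3 and 68.0 CPM in PBS libraries. EKO_exo libraries were below all PBS and all WT_exo libraries, while WT_exo and PBS libraries overlapped. Stard4 had a log2 fold change of -0.27 ± 0.067 (adjusted p = 0.0126) in EKO_exo and of -0.15 ± 0.066 (adjusted p = 0.232) in WT_exo. The call in EKO_exo was lost without EKO_exo library 2, PBS library 1 or PBS library 2 (adjusted p = 0.0534 to 0.127), and without EKO_exo libraries 1 and 3 together.

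Set side by side, the steps differed in how far they lay from PBS. The summed CPM of the 7 desaturation and elongation genes was 617, 663 and 658 CPM in EKO_exo, 631, 619 and 623 CPM in WT_exo, and 856, 833 and 785 CPM in PBS, with no overlap between exosome and PBS libraries. Of these sums, Scd2 alone averaged 344 CPM in EKO_exo, 332 CPM in WT_exo and 501 CPM in PBS. The fatty acid synthesis genes summed to 1502 ± 29.4 CPM in EKO_exo, 1534 ± 16.6 CPM in WT_exo and 1564 ± 34.1 CPM in PBS. The early sterol genes summed to 212 ± 10.5 CPM in EKO_exo, 211 ± 5.68 CPM in WT_exo and 228 ± 7.88 CPM in PBS. The late sterol genes summed to 435 ± 24.9 CPM in EKO_exo, 436 ± 6.01 CPM in WT_exo and 474 ± 13.5 CPM in PBS (SD, n = 3 each). Sums follow the best expressed genes, so each library was also described by the mean over a step's genes of the log2 ratio to the PBS mean (pseudocount 0.1 CPM). On that scale desaturation and elongation lay between -0.57 and -0.42 in EKO_exo, between -0.71 and -0.56 in WT_exo and between -0.08 and 0.03 in PBS. This mean follows the genes with the largest ratios, here the scarce Scd1 and Fads2. Their log2 fold changes were -1.42 and -1.08 in EKO_exo, and -1.66 and -1.44 in WT_exo. The other genes of the step lay between -0.54 and 0.10 in EKO_exo and between -0.60 and 0.06 in WT_exo. The early sterol step lay between -0.27 and -0.10 in EKO_exo, between -0.17 and -0.11 in WT_exo and between -0.04 and 0.04 in PBS, with all exosome libraries below all PBS libraries. In the summed CPM of that step the groups overlapped, with EKO_exo library 3 at 224 CPM and PBS library 3 at 221 CPM. Fatty acid synthesis lay between -0.16 and -0.13 in EKO_exo, between -0.10 and -0.09 in WT_exo and between -0.05 and 0.03 in PBS. The late sterol step was uneven in EKO_exo, with library 1 at -0.25 and the other two at -0.01 and -0.06, against -0.06 to -0.04 in WT_exo and -0.07 to 0.04 in PBS. No test was made between steps.

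**Figure D3:**
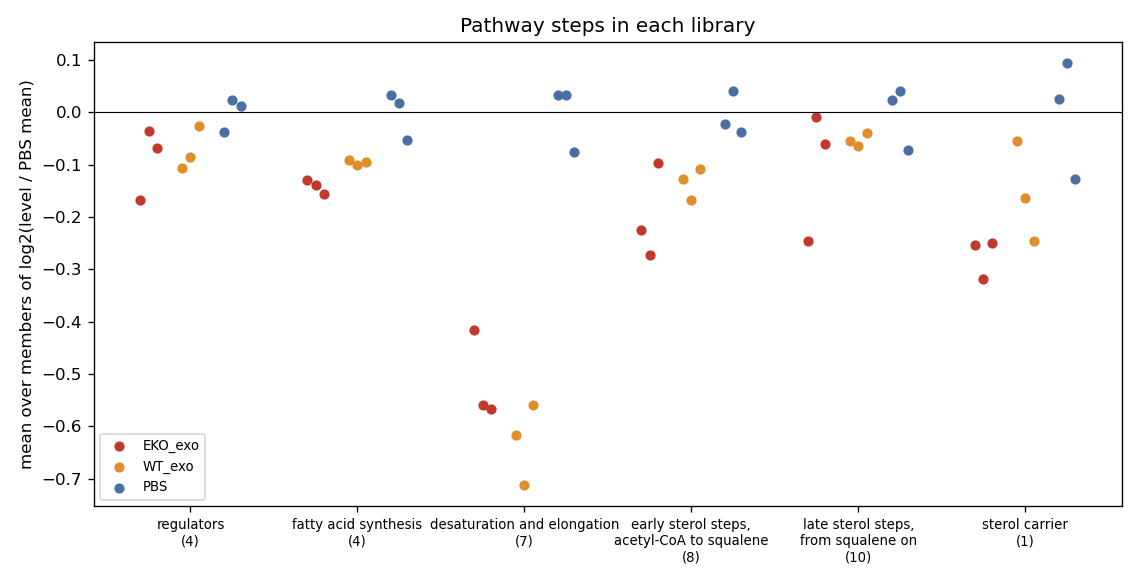
For each pathway step (number of tested genes in brackets), the mean over its genes of the log2 ratio of each library's level to the PBS mean, 1 point per library, with the groups EKO_exo, WT_exo and PBS side by side. Desaturation and elongation lie between -0.71 and -0.42 in the 6 exosome libraries, while the late sterol point of EKO_exo library 1 (-0.25) sits away from the other EKO_exo libraries. In desaturation and elongation the largest falls are those of the scarce Scd1 and Fads2.

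With the 6 exosome libraries set together against PBS, a contrast added after seeing the data, 10 of the 34 members fell, where 4.04% of all genes fell. By the same edgeR test 0 rose (0 also at an unadjusted p under 0.05), where 3.04% of all genes rose. The 10 were Srebf1, Acaca, Scd1, Scd2, Elovl6, Fads1, Fads2, Lss, Cyp51 and Stard4, which are the members called in at least 1 of the separate comparisons. In this contrast Scd2 was at -0.57 ± 0.036 log2 (adjusted p = 1.98e-11), Fads2 at -1.26 ± 0.184 (adjusted p = 3.01e-05), Elovl6 at -0.38 ± 0.067 (adjusted p = 0.00043) and Srebf1 at -0.21 ± 0.04 (adjusted p = 0.00073). Acaca was nearest to the threshold (-0.20 ± 0.06, adjusted p = 0.045). Srebf2 was at -0.03 ± 0.031 and Fasn at -0.02 ± 0.025.

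Whether the exosomes of ApoE-deficient and wild-type donors differed in their effect was tested directly. No member passed in EKO_exo against WT_exo by edgeR, where 4 of all genes rose (0.0272%) and 1 fell (0.00681%), and DESeq2 and limma voom also called 0 members. At an unadjusted p under 0.05 edgeR found 1 member higher, Elovl6, and 1 lower, Hsd17b7, and the other 2 tools 1 in each direction. Elovl6 was higher in every EKO_exo library than in any WT_exo library, by 0.24 ± 0.079 log2 (unadjusted p = 0.00579, adjusted p = 0.512). It was the only member so placed, where 5.88% of all genes were, and 2 members, Acly and Stard4, lay wholly lower, where 5.97% were. Hsd17b7 was at -0.29 ± 0.128 (unadjusted p = 0.0307, adjusted p = 0.656), with 10.1, 14.1 and 13.0 CPM in EKO_exo and 16.3, 15.2 and 14.0 CPM in WT_exo.

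The 95% intervals show what these libraries could have missed. For Scd2 the difference of EKO_exo from WT_exo was 0.05 ± 0.042, with an interval of -0.03 to 0.14 log2. For Srebf1 the interval was -0.14 to 0.05, for Fasn -0.07 to 0.05, for Cyp51 -0.07 to 0.12, and for Fads1 -0.18 to 0.12. The scarce genes were poorly bounded, with intervals of -0.59 to 1.08 for Scd1, -0.11 to 0.83 for Fads2 and -1.02 to 0.07 for Fdps. The calls of Acaca and Stard4 in EKO_exo alone, and of Elovl6 in WT_exo alone, are thus not shown to be differences between the exosome groups. The direct comparison gave a log2 fold change of -0.14 ± 0.07 (adjusted p = 0.719) for Acaca and of -0.12 ± 0.067 (adjusted p = 0.756) for Stard4.

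**Figure D4:**
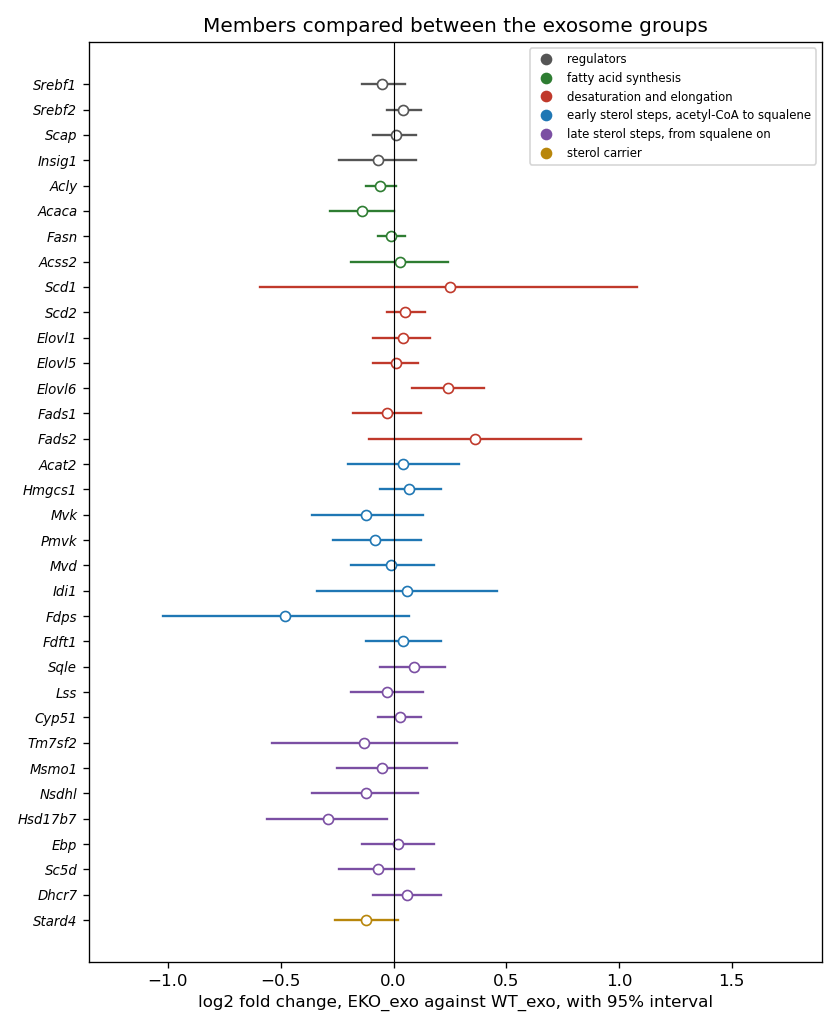
The log2 fold change of EKO_exo against WT_exo for each of the 34 tested members (open points) with its 95% interval (lines), coloured by pathway step. None passed the test; the interval is narrowest for Fasn (-0.07 to 0.05) and widest for Scd1 (-0.59 to 1.08), and those of Elovl6 and Hsd17b7 do not reach 0.

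Of 8 further SREBP regulators, which include the activating proteases and ligases that degrade INSIG, 1 rose in EKO_exo against PBS by edgeR, where 2 were higher and 1 lower at an unadjusted p under 0.05. In that comparison limma voom called the same 1 gene, and DESeq2 called 3 (Syvn1 and Ubxn4 higher, Fbxw7 lower). In WT_exo against PBS edgeR called 0, with 2 higher at an unadjusted p under 0.05, DESeq2 called 0 and limma voom called 1, Rnf139. The gene called by edgeR in EKO_exo was Syvn1, an endoplasmic reticulum ubiquitin ligase, with 107 ± 7.72 CPM in EKO_exo, 96.0 ± 3.21 CPM in WT_exo and 89.5 ± 4.50 CPM in PBS (log2 fold change 0.25 ± 0.057, adjusted p = 0.00657 in EKO_exo). That call was lost without EKO_exo library 3 or PBS library 1. Of 5 tested desaturases and elongases outside the list, 5 other enzymes of the elongation cycle, 12 genes of citrate supply and acyl-CoA activation, 16 of phospholipid and triglyceride assembly and 10 of the non-sterol branches of the mevalonate pathway, none passed in either comparison with PBS by edgeR. At an unadjusted p under 0.05 by edgeR, citrate supply and acyl-CoA activation had 5 genes lower in EKO_exo and 3 lower in WT_exo. Phospholipid and triglyceride assembly had 4 lower and 2 higher in EKO_exo and 1 higher in WT_exo, and the elongation cycle had 1 lower and 1 higher in EKO_exo and 2 lower in WT_exo. The other lists had 0. Of these lists, DESeq2 called 1 gene in each comparison and limma voom 1 in WT_exo, in each case Acsl5, an acyl-CoA synthetase, which was lower. Over all 5 lists the median log2 fold change lay between -0.10 and 0.01 in EKO_exo and between -0.31 and -0.03 in WT_exo. The -0.31 belongs to the other desaturases and elongases, of which Elovl4, Elovl7 and Scd4 averaged at most 1.28 CPM in any group.

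LXRs are sterol sensors that are known to raise Srebf1 and Scd1. Of 6 LXR factors and targets, Nr1h2, which encodes LXR-beta, rose in both comparisons. It had 177, 163 and 173 CPM in EKO_exo, 166, 165 and 164 CPM in WT_exo and 138, 145 and 139.8 CPM in PBS. All exosome libraries were above all PBS libraries. The log2 fold change was 0.28 ± 0.043 in EKO_exo (adjusted p = 0.000141) and 0.23 ± 0.043 in WT_exo (adjusted p = 0.0011), and without EKO_exo libraries 1 and 3 the call in EKO_exo was lost. The LXR targets Abcg1 and Mylip did not pass, at -0.15 and 0.30 in EKO_exo and -0.13 and 0.12 in WT_exo.

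Cell cycle genes also fell in both exosome groups. Of 16, 11 fell in EKO_exo against PBS (median log2 fold change -0.47) and 13 in WT_exo against PBS (median -0.46). Mki67, a marker of cycling cells, averaged 347 ± 8.46 CPM in EKO_exo, 329 ± 12.7 CPM in WT_exo and 489 ± 7.33 CPM in PBS. Its log2 fold change was -0.50 ± 0.035 in EKO_exo and -0.57 ± 0.035 in WT_exo. Top2a, the topoisomerase of dividing cells, was at -0.61 ± 0.047 in EKO_exo and -0.60 ± 0.047 in WT_exo. The part of cell division in the lower levels of lipid genes was not tested.

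Transcripts used as markers of other cell types were also counted, which does not by itself show that such cells were present. Macrophage and monocyte markers summed to 77.7 to 86.8 CPM in EKO_exo, 76.0 to 81.8 CPM in WT_exo and 62.7 to 75.4 CPM in PBS. Of 12, 5 were tested, 8 averaged under 1 CPM and C1qa was at 0 in every library. Ctss made up most of these sums, with a mean of 55 CPM in EKO_exo, 54 CPM in WT_exo and 46 CPM in PBS. Against PBS, the log2 fold change of Cd68 was -0.20 in both exosome groups. That of Cd14 was -0.15 in EKO_exo and 0.06 in WT_exo, and that of Lyz2 was 0.18 in EKO_exo and 0.16 in WT_exo. None of these 3 passed. By edgeR Csf1r and Ctss rose in EKO_exo against PBS, with adjusted p of 0.0476 for Csf1r and 0.0494 for Ctss. These 2 became 0 without EKO_exo library 1 or 2, PBS library 1 or 2, or WT_exo library 1 or 2, and 1 without the third library of any group. By limma voom 0 were called in EKO_exo, and by DESeq2 1, Ctss. In WT_exo against PBS Ctss was at 0.22 ± 0.071 (adjusted p = 0.0743 by edgeR), and DESeq2 and limma voom called it higher. B cell markers summed to 614 to 619 CPM in EKO_exo, 515 to 579 CPM in WT_exo and 527 to 568 CPM in PBS, with 9 of 10 tested. Ighm and Igkc rose in EKO_exo against PBS. These 2 became 0 without PBS library 1 or without EKO_exo libraries 1 and 3, and 1 without PBS library 3. Igkc, an immunoglobulin light chain gene, also rose in EKO_exo against WT_exo (log2 fold change 0.43 ± 0.061, adjusted p = 0.0022 by edgeR), and is 1 of the 4 genes that did. It had 121, 127 and 133 CPM in EKO_exo, 92.8, 86.5 and 104 CPM in WT_exo, and 98.3, 111 and 105 CPM in PBS. DESeq2 and limma voom called it too, and the edgeR call was lost without WT_exo library 1 or 2 and without EKO_exo libraries 1 and 3. CD8 T cell and NK cell markers summed to 35.2 to 37.7 CPM in EKO_exo, 31.7 to 34.7 CPM in WT_exo and 28.2 to 33.8 CPM in PBS, with 4 of 7 tested. Of these Eomes rose in EKO_exo against PBS, a call lost without EKO_exo library 2, without PBS library 2 and without EKO_exo libraries 1 and 3. Eomes averaged 23.8 CPM in EKO_exo, 21.6 CPM in WT_exo and 17.5 CPM in PBS, the largest part of these sums. Cd8b1 averaged 9.52 CPM in EKO_exo, 8.58 CPM in WT_exo and 11.1 CPM in PBS. Its log2 fold changes of -0.22 in EKO_exo and -0.37 in WT_exo did not pass. Of the 4 tested, 2 lay below 0 in EKO_exo and 1 in WT_exo. Dendritic cell, neutrophil, and erythroid and platelet markers summed to at most 12.9 CPM in any library. The neutrophil marker S100a9 was called lower in WT_exo against PBS (adjusted p = 0.0408 by edgeR), with 0 CPM in all WT_exo libraries and 0.0352, 0.614 and 0.688 CPM in PBS. That call was lost without any 1 PBS or WT_exo library, and DESeq2 did not make it. Whether these transcripts came from other cells, from the T cells or from the exosomes was not tested, nor was their part in the results.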

How the data were processed

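The authors deposited raw counts, 1 whole number per gene and library. Their tools included STAR 2.7.5c, and their build was GRCm38, per the submitters' processing notes. Which program counted the reads, with what strandedness and gene models, is not given in the sources used here. Per the labels' protocols, mRNA libraries were made with a Universal Plus kit. Symbols came from GENCODE M21.

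The software was edgeR 4.0.16 under R 4.3.3. Low genes were removed with filterByExpr (minimum count 10, minimum total 15). Libraries were scaled by TMM and fitted with the 3 groups and no covariate over all 9 libraries. Groups were compared by the quasi-likelihood F test with 6 residual and 21.06 prior degrees of freedom, with Benjamini-Hochberg adjustment over all 14684 genes and calls at an adjusted p under 0.05. CPM use TMM-scaled library sizes, and intervals of fold changes are at 95%. Alternatives used DESeq2 1.42.0 and limma 3.58.1. Counts limit precision most for Scd1, Fads2, Fdps, Idi1 and Tm7sf2. A chi-square of counts between replicates, over its degrees of freedom, was 5.03 to 9.08, so no library was taken for a repeat of another. The fits were tested on simulated data.

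The members, steps, lists and rules were chosen with earlier results of these data known. Under the rule for named genes, every member is accounted for and values are given in full for members called in any comparison and for the 4 regulators. From each other list up to 3 called genes were eligible. Where 5 or fewer genes passed and are named, that choice came after their values were seen.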

Additional observations from a re-analysis of the deposited data

How the results depend on the processing

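Over 319 alternative analyses of single members that passed in either comparison with PBS, 44 lost the call and none reversed, with a largest adjusted p of 0.571. Scd2 and Fads2 in both comparisons and Elovl6 in WT_exo kept the call in all 19. The 9 fallen members of EKO_exo against PBS became 3 to 9 when single libraries were left out and 2 without EKO_exo replicates 1 and 3, where the lone EKO_exo library is assumed to vary like the other groups. Under other tools, scalings, filters and fits they numbered 9 to 10. The 8 of WT_exo against PBS became 4 to 8 when single libraries were left out and 7 to 8 otherwise. EKO_exo against WT_exo gave 0 in every alternative. DESeq2 gave Scd1 no adjusted p, and a filter at a mean of 5 CPM removed it. Fits with the replicate number as a block gave 9, 7 and 0 fallen members in EKO_exo against PBS, WT_exo against PBS and EKO_exo against WT_exo, the one call lost being Lss in WT_exo. The main fit did not pair libraries by replicate number. Deviations of same-numbered libraries correlated at -0.02 to 0.02, and those of other pairs at -0.026 to 0.025. These values cannot exclude that same-numbered libraries share a source with a small effect. Of 342 alternative step medians 20 moved by more than the spread between replicates of the step's mean log2 ratio, 18 of them for fatty acid synthesis. In the exosome groups that spread was narrow for fatty acid synthesis, with mean ratios of -0.156 to -0.13 in EKO_exo and -0.1 to -0.091 in WT_exo. A median counted as moved is thus not necessarily a large shift. The cause of the shifts was not tested. With 3 libraries per group, small changes in scarce genes were not detectable at this depth.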
